A study of Mus musculus with 2 samples.

Results

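The Ikaros family comprises 5 genes, Ikzf1 to Ikzf5, which were taken from the deposited table by their gene symbols. All 5 were found among the 23337 symbols listed. The RNA came from regulatory T (Treg) cells, the CD4 T cells that carry the transcription factor Foxp3 and restrain immune responses. They were sorted from the injured tibialis anterior, quadriceps and gastrocnemius muscles of 8-week-old male mice on the Foxp3-IRES-GFP/C57BL/6 background, where green fluorescent protein is made along with Foxp3. In the IL-33 group the muscles received cardiotoxin, a snake toxin that destroys muscle fibres, together with 0.3 ug of recombinant IL-33, a cytokine released by damaged tissue. In the PBS group they received cardiotoxin with PBS. Both groups were therefore injured, muscles were collected 4 days after injury, and 5000 cells per library were sorted. Each group held 1 library, and the number of mice behind each is not given in the sources used here.

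Ikaros family proteins are zinc finger transcription factors. A block of fingers near the start of the protein binds DNA, and a pair of fingers at its end joins members to each other. Family members recruit chromatin remodelling and histone deacetylase complexes, among them NuRD, and mostly silence genes in lymphocytes. Ikzf1 encodes Ikaros, the founding member, which is required for lymphocyte development. Ikzf2 encodes Helios, which marks a large share of Treg cells and stabilises their identity. Ikzf3 encodes Aiolos, best known from B cells and from T cells that do not make IL-2. Ikzf4 encodes Eos, a partner of Foxp3 in silencing genes, and Ikzf5 encodes Pegasus, the most divergent and least studied member.

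A single library per group allowed no test. Levels are given in CPM, counts scaled to a common library total, and members were compared with each other per kb of transcript. On that scale Ikzf2 led the family in both libraries, at 181 CPM per kb with IL-33 and 207 CPM per kb with PBS. Ikzf3 stood lower with IL-33, at 0.574 times its PBS level, and Ikzf4 stood higher, at 1.90 times its PBS level on few counts. Ikzf1 and Ikzf5 were at nearly the same level in both. All intervals given are 95% and cover counting error only, since the protocols name no molecular identifiers and amplified reads are not independent molecules. "Higher" and "lower" compare these 2 libraries, not the treatments.

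The family lies on 4 chromosomes of the GRCm38 assembly. Ikzf1 spans 11685003 to 11772926 on the forward strand of chromosome 11, and Ikzf3 spans 98464902 to 98546031 on the reverse strand of the same chromosome. Ikzf2 spans 69531214 to 69687245 on chromosome 1, Ikzf4 spans 128630843 to 128645991 on chromosome 10 and Ikzf5 spans 131388652 to 131410521 on chromosome 7, all on the reverse strand. The longest coding transcript has 8 exons in each of Ikzf1 to Ikzf4 and 4 in Ikzf5. The coding sequence has 1545 bases in Ikzf1, 1578 in Ikzf2, 1521 in Ikzf3, 1758 in Ikzf4 and 1257 in Ikzf5.

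The second finger is shown because it lies in the block that binds DNA and was matched in each of the first 4 members. Each sequence is the coding strand of exon 5 read 5′ to 3′, and capitals mark bases that differ from Ikzf1.
Ikzf1 (chr11:11754024-11754086, forward strand): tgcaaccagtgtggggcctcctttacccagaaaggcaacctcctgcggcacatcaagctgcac
Ikzf2 (chr1:69570581-69570643, reverse strand): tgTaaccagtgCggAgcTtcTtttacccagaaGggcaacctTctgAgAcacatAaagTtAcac
Ikzf3 (chr11:98488940-98489002, reverse strand): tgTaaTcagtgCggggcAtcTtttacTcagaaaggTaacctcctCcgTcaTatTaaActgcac
Ikzf4 (chr10:128640229-128640291, reverse strand): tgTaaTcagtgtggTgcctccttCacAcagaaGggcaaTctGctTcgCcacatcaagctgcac
Of the 63 bases, 51 in Ikzf2, 51 in Ikzf3 and 53 in Ikzf4 are those of Ikzf1.

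The last finger is shown because it is present in all 5 genes and holds the longest coding stretch that any reads of Ikzf1 and Ikzf3 could share. Each sequence begins 4 codons before the finger, in the last coding exon, and capitals again mark bases that differ from Ikzf1.
Ikzf1 (chr11:11769483-11769563, forward strand): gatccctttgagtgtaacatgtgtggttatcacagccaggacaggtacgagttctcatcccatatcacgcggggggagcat
Ikzf2 (chr1:69538780-69538860, reverse strand): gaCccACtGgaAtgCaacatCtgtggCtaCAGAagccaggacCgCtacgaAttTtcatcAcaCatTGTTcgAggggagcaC
Ikzf3 (chr11:98467004-98467084, reverse strand): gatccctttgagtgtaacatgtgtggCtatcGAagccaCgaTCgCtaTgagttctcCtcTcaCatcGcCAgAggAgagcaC
Ikzf4 (chr10:128634060-128634140, reverse strand): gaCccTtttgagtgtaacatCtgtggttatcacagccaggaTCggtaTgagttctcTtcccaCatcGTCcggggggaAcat
Ikzf5 (chr7:131391649-131391729, reverse strand): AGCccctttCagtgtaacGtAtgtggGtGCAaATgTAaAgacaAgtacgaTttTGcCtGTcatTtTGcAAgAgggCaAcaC
Of the 81 bases, 57 in Ikzf2, 64 in Ikzf3, 69 in Ikzf4 and 50 in Ikzf5 are those of Ikzf1.

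Whole coding sequences differed from that of Ikzf1 more than the fingers shown did. For Ikzf5 the gap was slight, with 60.0% of aligned bases identical against 61.7% in the last finger. Not every finger was more alike, since finger 1 of Ikzf3 was at 63.5%, against 65.4% for its whole coding sequence. In global alignments, Ikzf1 and Ikzf4 were the most alike, with 68.2% of aligned bases identical, and Ikzf3 and Ikzf5 the least, with 58.9%. A search of the reading frame for cysteine and histidine codons spaced as in C2H2 fingers found 6 matches in Ikzf1, Ikzf2 and Ikzf4 and 5 in Ikzf3 and Ikzf5. A finger with other spacing would not be counted.

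**Figure D1:**
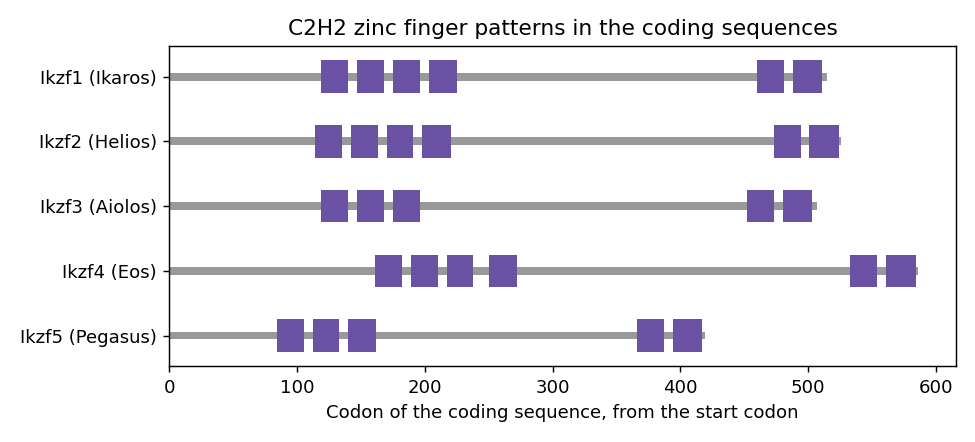
Matches to the C2H2 zinc finger pattern (blocks) along the coding sequence (grey bar) of each member, in codons from the start codon. Each gene has a block of 3 or 4 matches nearer its start and a pair at its end, and Ikzf5 is the shortest, with 419 codons.

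Each read of a pair was 25 bases long, so sequence shared between genes bears on the counts. Of the 10 pairs of members, Ikzf1 and Ikzf3 shared 2 stretches of 25 bases in their longest coding transcripts, and together these form the 26-base run gatccctttgagtgtaacatgtgtgg that opens the last-finger sequences of both. Ikzf2 and Ikzf4 shared 4 stretches, and the other pairs shared 0. At most 0.624% of the 25-base stretches of a member, in Ikzf4, were found in another member. Ikzf5 was a different case. On the opposite strand it overlaps Pstk, the gene of a kinase in selenocysteine synthesis, and 80.3% of the 25-base stretches of Ikzf5 also occur, in either orientation, in annotated Pstk transcripts. Whether the counting used strand is not given in the sources used here, so reads of Ikzf5 and Pstk may not have been told apart. Pstk had 227 counts with IL-33 and 46 with PBS, a ratio of 1.90 (1.38 to 2.67), while that of Ikzf5 was 0.962. Ikzf5 also overlaps the annotated span of Fgfr2 on the same strand, over 21870 bases, and Fgfr2 had 0 counts in both libraries. Ikzf2 overlaps the antisense gene Gm29114 over 16494 bases, and that gene is not listed in the table.

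The IL-33 library held 4080791 counts and the PBS library 1573707, a ratio of 2.59, so each level with PBS is less precise. Each count is worth 0.245 CPM with IL-33 and 0.635 CPM with PBS. Genes were compared where they reached 5 CPM in either library, which left 9005. Their median log2 fold of the IL-33 over the PBS library, taken on CPM plus 1, was -0.08. Scaling by the trimmed mean of M-values (TMM) moved that median by 0.13, so a smaller value than that has no firm sign. The 9 Treg cell markers summed to 10567 CPM with IL-33 and 10862 CPM with PBS. Most of that came from the inhibitory receptor gene Ctla4. Foxp3 itself had 40 counts with IL-33 and 1 count with PBS, or 9.80 CPM and 0.635 CPM. The gene that defines the sorted cells was thus low in both libraries and close to absent from the PBS library. Cd3e, named after its values were seen, was also low in both, at 18.9 CPM with IL-33 and 12.1 CPM with PBS. Cd3g was at 1341 CPM with IL-33 and 1165 CPM with PBS. Of the 9 markers, 5 had log2 folds above 0 and 4 below. Tnfrsf4 was lower with IL-33, at a ratio of 0.782 (0.736 to 0.831). Others, named after their values were seen, lay on both sides. Il2ra and Nrp1 had ratios of 0.721 (0.674 to 0.771) and 0.872 (0.807 to 0.944), and Tnfrsf18 and Cd4 had ratios of 1.18 (1.09 to 1.29) and 1.03 (0.952 to 1.12).

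Ikzf2, encoding Helios, had 6858 counts with IL-33 and 3029 with PBS. These correspond to 1681 CPM (1641 to 1721) with IL-33 and 1925 CPM (1857 to 1995) with PBS. The ratio was 0.873 (0.836 to 0.912) under library totals, an interval below 1 that treats reads as independent. With TMM scaling the ratio was 0.949. In bulk RNA, fewer cells that carry a transcript and less of it per cell cannot be told apart.

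Ikzf1, encoding Ikaros, had 1084 counts with IL-33 and 411 with PBS. Its level was 266 CPM (250.1 to 282) with IL-33 and 261 CPM (237 to 288) with PBS, and the first interval lies within the second. The ratio was 1.02 (0.907 to 1.14), and 1.11 with TMM scaling.

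Ikzf3, encoding Aiolos, had 968 counts with IL-33 and 650 with PBS, although the IL-33 library was the deeper. Its level was 237 CPM (222 to 253) with IL-33 and 413 CPM (382 to 446) with PBS, and the intervals do not overlap. The ratio was 0.574 (0.519 to 0.635), the lowest in the family, and it stayed between 0.574 and 0.625 under the 4 scalings tried.

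Ikzf4, encoding Eos, was the least counted member, with 138 counts with IL-33 and 28 with PBS. Its level was 33.8 CPM (28.4 to 40.0) with IL-33 and 17.8 CPM (11.8 to 25.7) with PBS. The ratio was 1.90 (1.26 to 2.96), the highest in the family and the least precise. Its log2 fold on CPM plus 1 was 0.89, below 2-fold, but 1.01 with TMM scaling, just past it.

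Ikzf5, encoding Pegasus, had 399 counts with IL-33 and 160 with PBS. Its level was 97.8 CPM (88.4 to 108) with IL-33 and 102 CPM (86.5 to 119) with PBS. The ratio was 0.962 (0.799 to 1.16), and its direction turned with TMM scaling, to 1.05.

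**Figure D2:**
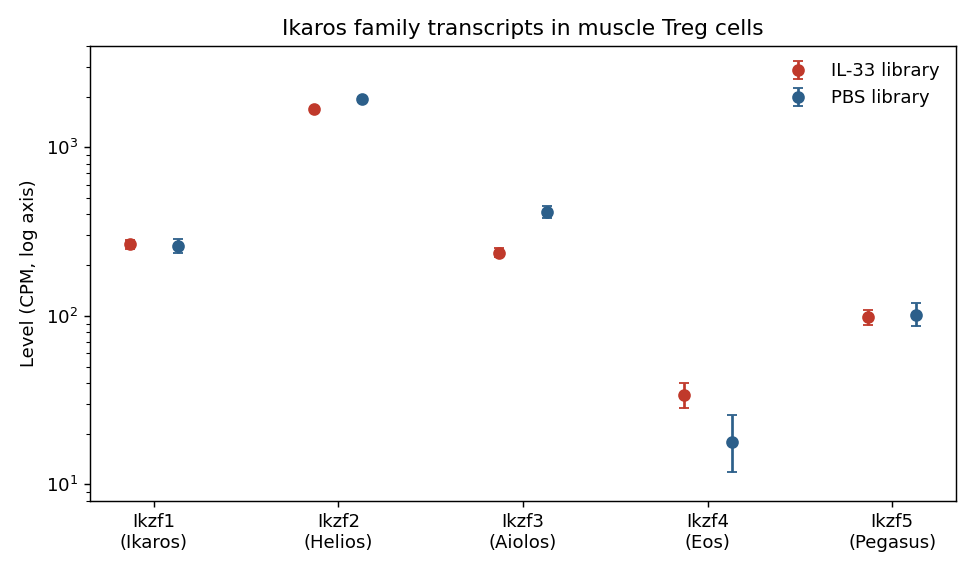
Level of each family member in CPM (log axis) in Treg cells with IL-33 (left point of each pair) and with PBS (right point), 1 library each, with exact Poisson 95% intervals for counting error. The IL-33 and PBS intervals do not overlap for Ikzf2, Ikzf3 and Ikzf4, and overlap for Ikzf1 and Ikzf5.

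Under library totals none of the 5 members differed by 2-fold or more on CPM plus 1 (with TMM scaling Ikzf4 did), where 31.8% of all genes compared did, 15.5% higher and 16.3% lower. At 1.5-fold, 2 of the 5 were called, Ikzf4 as higher and Ikzf3 as lower, where 50.9% of all genes compared were, 23.5% higher and 27.4% lower. The members' median log2 fold was -0.06, beside -0.08 over all genes compared. These shares differed with abundance. Past 2-fold were 68.5% of genes averaging 2.5 to 10 CPM, against 35.3% of those from 10 to 50 CPM and 2.09% of those from 200 to 1000 CPM. Each member was placed among genes of like abundance. For Ikzf3, the 860 genes averaging 200 to 1000 CPM had a middle 95% of log2 folds from -0.85 to 0.81, and 10% of them were at least 1.5-fold lower. Ikzf3, at -0.80, lay just inside the low end of that range, while Ikzf1, at 0.02, lay inside its middle 50%, from -0.36 to 0.17. For Ikzf2, at -0.20, the 130 genes averaging at least 1000 CPM had a middle 50% from -0.19 to 0.25, and a middle 95% from -0.42 to 0.86. For Ikzf4, at 0.89, the 3511 genes averaging 10 to 50 CPM spread widely, with a middle 95% from -2.42 to 2.91, and 26.0% of them were at least 1.5-fold higher. Ikzf5, at -0.06, lay inside the middle 50% of the 2576 genes averaging 50 to 200 CPM, from -0.50 to 0.28.

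**Figure D3:**
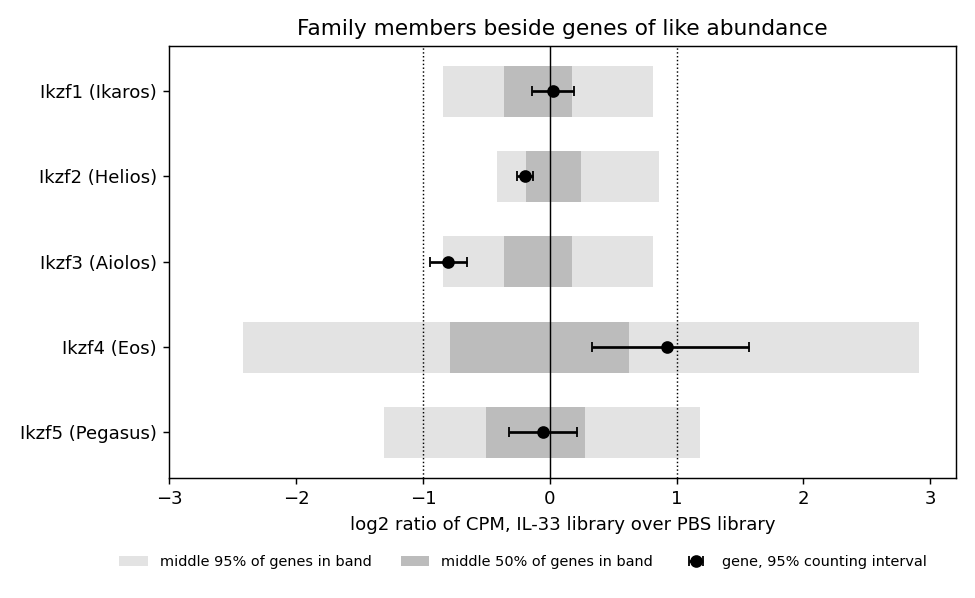
Log2 ratio of CPM, IL-33 library over PBS library, for each member (points, with exact 95% counting intervals). Grey bars show the middle 50% and 95% of log2 folds on CPM plus 1 of genes in the same band of mean CPM, and dotted lines mark 2-fold. Ikzf3 lies near the low end of its band, and the band of Ikzf4 is the widest.

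Counts of members within a library do not depend on how the libraries are scaled. For each count of Ikzf3 there were 1.12 counts of Ikzf1 with IL-33 and 0.632 with PBS, a ratio of 1.77 (1.52 to 2.07). For each count of Ikzf3 there were 7.08 counts of Ikzf2 with IL-33 and 4.66 with PBS, a ratio of 1.52 (1.36 to 1.70). Aiolos transcripts were thus fewer with IL-33 relative to Ikaros and to Helios transcripts alike. For each count of Ikzf4 there were 49.7 counts of Ikzf2 with IL-33 and 108 with PBS, a ratio of 0.459 (0.294 to 0.695). The widest contrast was that of Ikzf3 and Ikzf4, with 7.01 counts of Ikzf3 for each count of Ikzf4 with IL-33 and 23.2 with PBS, a ratio of 0.302 (0.191 to 0.463). Ikzf1 over Ikzf2 differed least among the pairs whose counting interval left out 1, at 1.16 (1.03 to 1.32). Of the 10 pairs, 8 intervals left out 1. The others were Ikzf1 over Ikzf5, at 1.06 (0.846 to 1.32), and Ikzf2 over Ikzf5, at 0.908 (0.747 to 1.10). These intervals are not adjusted for the number of pairs. The pairs reuse the counts of the same members, so they are not separate results. No such share was computed for pairs of other genes, so 8 of 10 has no background to be read against.

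Levels of different genes were compared per kb of the longest annotated transcript, which is 5163 bases for Ikzf1, 9278 for Ikzf2, 4607 for Ikzf3, 5150 for Ikzf4 and 4430 for Ikzf5. Ikzf2 led at 181 CPM per kb (177 to 185) with IL-33 and 207 CPM per kb (200.1 to 215) with PBS. Helios was therefore the leading family transcript per length in both, with 57.9% of the family total with IL-33 and 55.5% with PBS. Ikzf3 and Ikzf1 came next. In the IL-33 library they could not be told apart, at 51.5 CPM per kb (48.3 to 54.8) for Ikzf3 and 51.4 CPM per kb (48.4 to 54.6) for Ikzf1. In the PBS library Ikzf3 stood apart, at 89.7 CPM per kb (82.9 to 96.8), above Ikzf1 at 50.6 CPM per kb (45.8 to 55.7). Ikzf5 followed at 22.1 CPM per kb with IL-33 and 23.0 CPM per kb with PBS, and Ikzf4 was last at 6.57 CPM per kb with IL-33 and 3.45 CPM per kb with PBS. The share of Ikzf3 in the family total was 16.5% with IL-33 and 24.0% with PBS, and that of Ikzf4 was 2.10% with IL-33 and 0.924% with PBS. The longest Ikzf3 transcript is annotated with a retained intron. With its coding transcript of 3658 bases, Ikzf3 was above Ikzf1 in both libraries, at 64.8 CPM per kb with IL-33 and 113 CPM per kb with PBS. With the median length of coding transcripts, Ikzf3 ranked below Ikzf1 and Ikzf5 in both libraries, so the order below Ikzf2 depends on the length used.

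**Figure D4:**
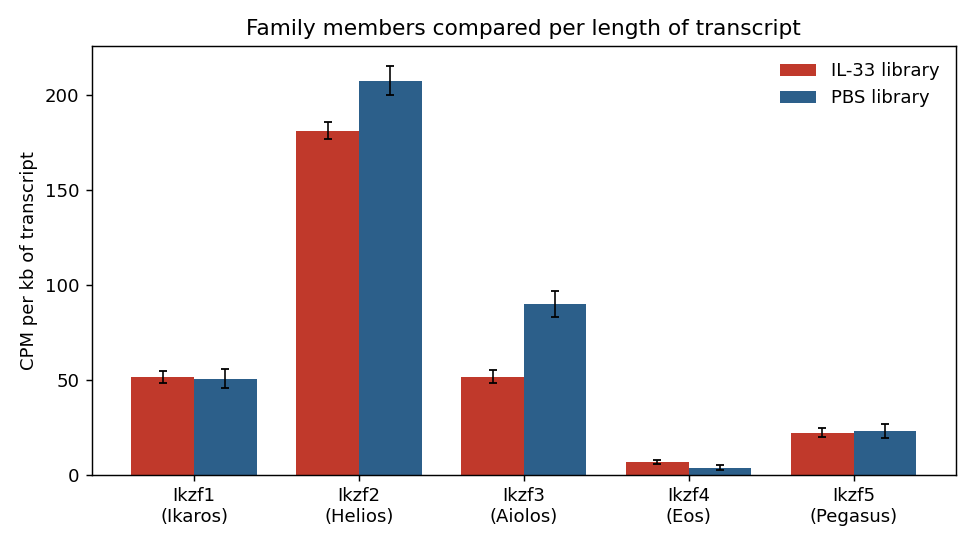
Level per kb of the longest annotated transcript, in CPM per kb, for each member with IL-33 (left bar) and with PBS (right bar), with exact Poisson 95% intervals. Ikzf2 is the tallest in both, and Ikzf3 is level with Ikzf1 with IL-33 but stands above it with PBS.

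Summed over its members, the family took 0.231% of all counts with IL-33 (0.227 to 0.236) and 0.272% with PBS (0.264 to 0.280; exact Clopper-Pearson). The ratio was 0.852 (0.821 to 0.883), and 0.926 with TMM scaling. Without Ikzf2 it was 0.799 (0.747 to 0.856).

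Several cell types other than Treg cells express Ikzf1 and Ikzf3, above all B cells. B cell markers summed to 38.7 CPM over 7 genes with IL-33 and 27.3 CPM with PBS. Pax5 and Ebf1, which define the B lineage, had 0 counts in both. The kinase gene Blk had 26 counts with IL-33 and 1 with PBS, and the interval of its ratio ran from 1.65 to 411. Most of the sum came from Cd79b, at 29.7 CPM with IL-33 and 23.5 CPM with PBS, a ratio of 1.26 (0.866 to 1.88). Markers of CD8 T and NK cells summed to 24.3 CPM over 6 genes with IL-33 and 13.3 CPM with PBS, mostly Cd8b1, with Cd8a at 0 in both. Macrophage markers summed to 36.8 CPM over 7 genes with IL-33 and 48.9 CPM with PBS, with Cd68 and Fcgr1 at 0 in both. The main contributors lay on opposite sides. Lyz2 was at 19.1 CPM with IL-33 and 38.8 CPM with PBS, a ratio of 0.493 (0.348 to 0.701), and Itgam was at 16.2 CPM with IL-33 and 7.63 CPM with PBS, a ratio of 2.12 (1.14 to 4.31). Dendritic cell markers summed to 21.6 CPM over 6 genes with IL-33 and 21.0 CPM with PBS. Of these, Itgax was at 0 with IL-33 and 12.1 CPM with PBS. Siglech was at 6.86 CPM with IL-33 and 1.27 CPM with PBS, a ratio of 5.40 (1.36 to 46.8), and Xcr1 was at 10.3 CPM with IL-33 and 7.63 CPM with PBS, a ratio of 1.35 (0.698 to 2.82). Fibroblast markers were at 0 with IL-33 and summed to 66.1 CPM over 6 genes with PBS. Most of that sum came from Col3a1, at 49.6 CPM, with Dcn at 24 counts and Pdgfra at 2 counts. Col1a1, Col1a2 and Lum were at 0 in both. Muscle and endothelial markers summed to 49.5 CPM over 7 genes with IL-33 and 54.0 CPM with PBS, mostly Pecam1, with Cdh5 at 3 counts with IL-33 and 11 with PBS. The part of other cells in the differences of Ikzf3 and Ikzf4 was not tested.

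Genes of the complexes and partners through which the family acts were described from 7 lists. The share of all genes compared that passed 2-fold, higher and lower or in either direction, is given beside each count. Past 2-fold in either direction were only 10.9% of genes averaging 50 to 200 CPM and 2.09% of those from 200 to 1000 CPM. Many listed genes average over 50 CPM, so few calls beside the share of all genes do not set a list apart. Of the 14 genes of NuRD, the remodelling and deacetylase complex that Ikaros recruits, all were over the floor of 5 CPM, 0 were higher at 2-fold and 1 was lower (all genes: 15.5% and 16.3%). The lower one was Chd3, a remodelling ATPase, at 47.8 CPM with IL-33 and 107 CPM with PBS, a ratio of 0.448 (0.362 to 0.554). Chd4, the ATPase most often found with Ikaros, was at 486 CPM with IL-33 and 439 CPM with PBS, a ratio of 1.11 (1.01 to 1.21). Mbd2, a methyl-DNA reader, was at 452 CPM with IL-33 and 478 CPM with PBS. The deacetylase gene Hdac1 was at 257 CPM with IL-33 and 360 CPM with PBS, a ratio of 0.714 (0.644 to 0.792). Others, named after their values were seen, lay on both sides. Gatad2a and Mta3 had ratios of 1.64 (1.35 to 2.02) and 1.71 (1.05 to 2.89), and Hdac2 had a ratio of 0.626 (0.511 to 0.769). The complex had members on both sides, 7 above 0 and 7 below, with a median log2 fold of -0.02 that TMM scaling turned to 0.10.

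Of the Sin3 and CtBP corepressors, 1 of 4 was higher at 2-fold and 0 were lower (all genes: 15.5% and 16.3%). This was Ctbp2, with 39 counts with IL-33 and 0 with PBS, at least 5.01-fold higher where the 39 counts are taken as given and 0 as the floor of 3 counts. Its ratio had a lower 95% limit of 3.89. Its relative Ctbp1, through which Eos silences genes with Foxp3, was at 18.1 CPM with IL-33 and 20.3 CPM with PBS, a ratio of 0.892 (0.582 to 1.40). The scaffold genes Sin3a and Sin3b had ratios of 0.953 (0.834 to 1.09) and 1.13 (0.965 to 1.33). The list median was 0.05, and 0.17 with TMM scaling.

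Of the 11 genes of BAF, the SWI/SNF remodelling complex, 0 were higher at 2-fold and 1 was lower (all genes: 15.5% and 16.3%), with 4 above 0 and 7 below. The lower one was Smarce1, a DNA-binding subunit, at 70.8 CPM with IL-33 and 169 CPM with PBS, a ratio of 0.419 (0.353 to 0.497). The core subunit gene Smarcc1 had a ratio of 0.617 (0.545 to 0.700), the ATPase gene Smarca4 0.714 (0.612 to 0.835) and the DNA-binding subunit gene Arid1a 0.798 (0.705 to 0.904). Others were higher with IL-33, with intervals above 1, and are named after their values were seen. The subunit genes Smarcb1, Actl6a and Smarcc2 had ratios of 1.91 (1.25 to 3.04), 1.85 (1.43 to 2.43) and 1.57 (1.24 to 2.01). The list median was -0.10, and it turned to 0.02 with TMM scaling.

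Cereblon, encoded by Crbn, is the substrate receptor of a ubiquitin ligase through which thalidomide analogues degrade human Ikaros and Aiolos. None of the 5 genes of that ligase was past 2-fold (all genes: 31.8%), and the median was -0.25, beside -0.08 over all genes, and -0.13 with TMM scaling. Crbn was at 173 CPM with IL-33 and 204 CPM with PBS, a ratio of 0.851 (0.744 to 0.974), and its adaptor gene Ddb1 had a ratio of 0.838 (0.733 to 0.960). Rbx1, the RING subunit, was at 387 CPM with IL-33 and 255 CPM with PBS, a ratio of 1.52 (1.36 to 1.70). Cul4a and Cul4b, named after their values were seen, had ratios of 0.569 (0.443 to 0.735) and 0.721 (0.606 to 0.861). Of the 5 log2 folds, 1 was above 0 and 4 were below. The kinase CK2 and the phosphatase PP1 add and remove phosphate on Ikaros. None of their 6 genes was past 2-fold (all genes: 31.8%), and the median was -0.23, and -0.11 with TMM scaling. The catalytic PP1 genes Ppp1ca, Ppp1cb and Ppp1cc had ratios of 0.705 (0.641 to 0.777), 0.830 (0.741 to 0.932) and 0.879 (0.798 to 0.968). The CK2 genes, named after their values were seen, lay on both sides, with ratios of 1.51 (1.30 to 1.76) for the catalytic subunit gene Csnk2a1, 0.887 (0.606 to 1.32) for Csnk2a2 and 0.560 (0.473 to 0.663) for the regulatory subunit gene Csnk2b.

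Of 9 genes of Foxp3 and the factors that act with it, 8 were over the floor, 1 was higher at 2-fold and 0 were lower (all genes: 15.5% and 16.3%). The higher one was Foxp3 itself, whose ratio of 15.4 has an interval from 2.61 to 624. Irf4, a factor of activated Treg cells, was at 199 CPM with IL-33 and 279 CPM with PBS, a ratio of 0.713 (0.634 to 0.803). Gata3, a factor of type 2 and tissue Treg cells, had a ratio of 0.795 (0.713 to 0.887), and Cbfb, the partner subunit of Runx factors, a ratio of 1.43 (1.24 to 1.66). The list median was 0.04, and 0.16 with TMM scaling.

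Many genes that Ikaros family members are known to control had no counts, as did many genes in general. Of 14, 8 had 0 counts in both libraries, among them Il2, the cytokine gene that the family represses, and Rag1, Dntt and Cd8a. Of all 23337 symbols listed, only 11529 had any count in either library, so these zeros do not set the list apart. Set at the floor of 3 counts, a count of 0 allows up to 0.735 CPM with IL-33 and 1.91 CPM with PBS. Another, Ifng, had 1 count with IL-33 and 0 with PBS. Of the 5 over 5 CPM, none was past 2-fold (all genes: 31.8%). Notch1, the receptor whose targets Ikaros restrains, was at 160.0 CPM with IL-33 and 199.5 CPM with PBS, a ratio of 0.802 (0.700 to 0.920). Bcl6, a repressor of follicular T cells, had a ratio of 1.02 (0.573 to 1.90) and Dtx1, a Notch target, a ratio of 1.10 (0.650 to 1.93). The list median was 0.03, and 0.14 with TMM scaling.

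**Figure D5:**
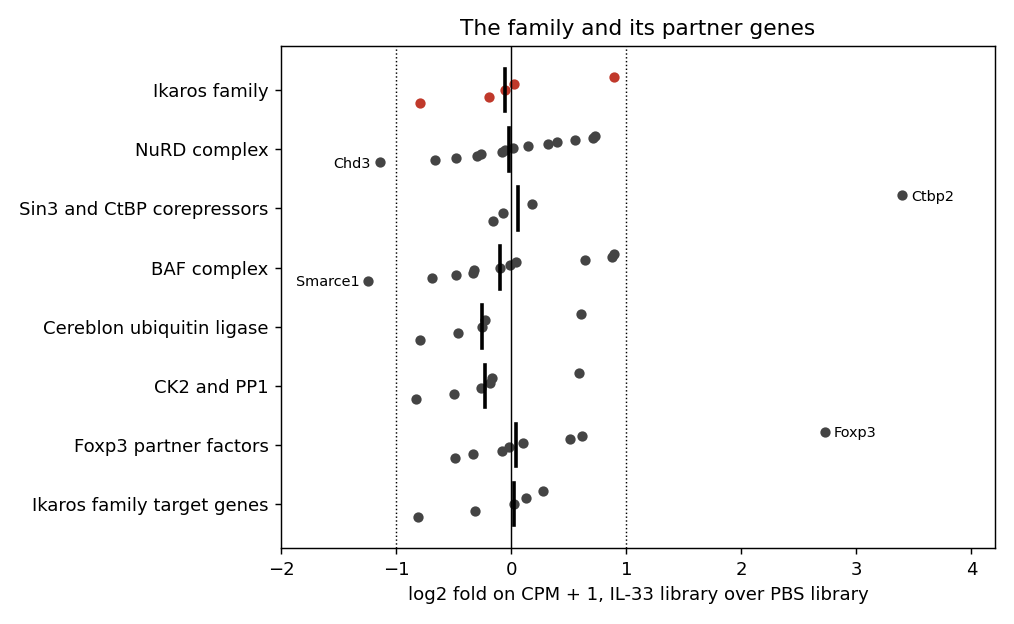
Log2 fold on CPM plus 1, IL-33 library over PBS library, of each gene over the floor of 5 CPM (points), for the Ikaros family (red) and 7 lists of partner and target genes (black). Vertical bars mark list medians and dotted lines 2-fold. Chd3 and Smarce1 lie below and Ctbp2 and Foxp3 above 2-fold, and the point of Ctbp2, with 0 counts with PBS, depends on the added 1 CPM.

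The genes nearest to each member in both libraries were found by Euclidean distance on log2 of CPM plus 1. Over 2 libraries such likeness is shared by many genes and says nothing of function. Among those nearest to Ikzf2 were Atrx, at a distance of 0.069, and Pabpc1, at 0.18. Nearest to Ikzf3 were Wac and Ppp1r16b, at 0.050 and 0.073, and Wac was at 238 CPM with IL-33 and 399 CPM with PBS. The third for Ikzf3, Pde4b, lay at 0.12. For Ikzf1, Ikzf4 and Ikzf5 the 3 nearest genes all lay within a distance of 0.040. They were Mrpl33, Gabarapl2 and Psen2 for Ikzf1, Mtap, Pgs1 and Camk2n1 for Ikzf4, and Cenpe, Mak16 and Tsc22d4 for Ikzf5.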

How the data were processed

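The authors deposited raw counts by gene symbol in 1 table that covers both libraries. Per the labels' protocols, poly(A) RNA was converted to cDNA, amplified, fragmented with a transposon and sequenced as paired reads of 25 bases. The submitters' processing notes name mm10, TopHat2 2.0.10 and Cufflinks 2.2.1. How reads were counted, against which annotation and whether by strand is not given in the sources used here.

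CPM were computed by library total, and folds on CPM plus a pseudocount of 1 for genes that reached 5 CPM in either library. Ratios of CPM carry exact conditional (Clopper-Pearson) intervals and ratios of count ratios exact conditional intervals of the odds ratio. Both cover counting error only. With 1 library per group no test was made.

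Positions, lengths and sequences came from GENCODE M21 on GRCm38, the assembly that mm10 names. Coding sequences were aligned with Biopython 1.88. The members and lists were chosen with earlier results of these data known. All 114 listed symbols were matched, Adgre1 as Emr1. Named genes are the members, each list's 3 highest genes and those past 2-fold, the 3 genes nearest each member, flanking genes and markers over 5 CPM, of which some are not reported here. Software was Python 3.11.15, scipy 1.17.1, R 4.3.3 and, for scaling factors alone, edgeR 4.0.16 and DESeq2 1.42.0. Fold calling and intervals were tested on simulated Poisson counts. That checks the calculation only, since nothing beyond counting error was simulated and the intervals assume the same kind of counts.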

Additional observations from a re-analysis of the deposited data

How the results depend on the processing

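Under TMM scaling, DESeq2 size factors and totals without the 20 highest genes, the ratios of Ikzf1, Ikzf3, Ikzf4 and Ikzf5 stayed within their counting intervals. The ratio of Ikzf2 moved to 0.949 with TMM and 0.945 with DESeq2 size factors. The number of genes past 2-fold was 2865, against 1332 with a floor of 20 CPM, which leaves 6206 genes, and 4581 at a threshold of 1.5-fold. The share of Ikzf2 in the family total per kb in the IL-33 library was 57.9%, against 73.2% with the median length of coding transcripts, 72.6% with no length correction and 55.6% with the longest coding transcript, a setting chosen after seeing the data. Ikzf4 passed 2-fold on CPM plus 1 with TMM scaling alone. With TMM and with DESeq2 size factors, the ratio of Ikzf5 and the medians of the NuRD and BAF lists moved above no difference, as did the NuRD median without the 20 highest genes. With a floor of 20 CPM, the medians of the Sin3 and CtBP, Foxp3 partner and target gene lists lay below 0, the last resting on 1 gene. The PBS library's 28 counts limit Ikzf4. No paired analysis was possible because each group held 1 library, and for the same reason no library could be left out.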

Other observations

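The nearest listed protein-coding genes on either side of each member were set beside it. Fignl1, 14.5 kb from Ikzf1, had 27 counts with IL-33 and 44 with PBS, a ratio of 0.237 (0.141 to 0.391), while Ikzf1 was at 1.02. Grb7, an adaptor protein gene 9.53 kb from Ikzf3, had 23 counts with IL-33 and 26 with PBS. Its ratio was 0.341 (0.186 to 0.622), with Ikzf3 at 0.574 (0.519 to 0.635). Of all genes averaging 10 to 50 CPM, where Fignl1 and Grb7 fall, 31.6% were at least 1.5-fold lower. Zpbp2, on the other side of Ikzf3, had 0 counts with IL-33 and 3 with PBS. Rps26, a ribosomal protein gene 4.09 kb from Ikzf4, was at 322 CPM with IL-33 and 524 CPM with PBS, a ratio of 0.614 (0.562 to 0.670), with Ikzf4 at 1.90. Of genes averaging 200 to 1000 CPM, where Rps26 falls, 10% were at least 1.5-fold lower. Suox, on the other side of Ikzf4, had a ratio of 1.09 (0.699 to 1.74), an interval that overlaps that of Ikzf4 (1.26 to 2.96). Acadsb, which begins 79 bases from the start of Ikzf5 on the opposite strand, had 101 counts with IL-33 and 23 with PBS, a ratio of 1.69 (1.07 to 2.79), with Ikzf5 at 0.962. On the other side of Ikzf5, 2310057M21Rik had 22 counts with IL-33 and 0 with PBS. Erbb4 and Spag16, which flank Ikzf2, and Zpbp, on the other side of Ikzf1, had 0 counts in both libraries.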
